A study of Mus musculus with 14 samples.

Results

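The hypoxia response genes described here are 10 genes named by symbol: Hif1a, Egln1, Egln3, Vegfa, Angptl4, Plod2, P4ha1, Ero1l, Car12 and Bnip3. All 10 were rows of the count table, which holds 55228 gene symbols; 26607 of these were counted in 1 library or more. The RNA came from cultured mouse epidermal cells of 2 regions of the tail: 6 libraries from the distal memory region, a region that the study's title places at a distance from an injury, and 8 libraries from the control, non-memory region. Every library came from Lrig1CreER/Rosa-TdTomato mice, in which a Cre recombinase driven from the Lrig1 gene of upper hair follicle progenitors switches on a red fluorescent label. The labels give all libraries the treatment none and the time 8w pw1, and age is not given in them. Cells positive for the surface antigen Sca1 were sorted, to enrich for the upper follicle, and grown for 1 week in keratinocyte medium, so the values describe cultured cells and not the tissue. No source used here gives the oxygen level of the culture. The libraries are small pools of cells, and the labels do not say that they came from separate animals or cultures, so the p-values reflect library-to-library spread alone, and that spread may be technical.

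Cells sense oxygen through the hypoxia-inducible factors (HIF). The alpha subunit, of which Hif1a encodes the best known form, is made constantly, is hydroxylated on prolines by the oxygen-dependent Egln enzymes, and is then bound by the von Hippel-Lindau protein and degraded. When oxygen is low the alpha subunit escapes hydroxylation, pairs with Arnt and activates genes for blood vessel growth, glycolysis, collagen processing and acid handling. Because this control acts on the protein, the level of Hif1a mRNA is not a measure of HIF activity. In skin, the epidermis has no blood vessels of its own, and HIF targets are known to be expressed in it.

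Total counts ranged from 2137934 to 4513518 in the distal libraries and from 4515646 to 7458872 in the control libraries, with every distal library shallower than every control one. The regions also differed in how a gene's count followed the GC content of its transcripts. The slope of log2 CPM (a library's counts scaled to a common total, here by TMM) on GC content, relative to the mean of all libraries, was 0.22 to 0.91 per 10 percentage points in distal libraries and -0.60 to -0.33 in control libraries. Region, depth and this GC trend cannot be told apart, and each member is therefore given both as counted and after removing the trend of every library with GC content and transcript length. Mitochondrial genes took 1.96% to 5.48% of counts in distal and 3.80% to 7.13% in control libraries; their part in the results was not tested. Keratinocyte markers were abundant, with summed levels of 20803 to 26866 CPM in distal and 16079 to 20184 CPM in control libraries over 10 of 10 detected markers. They did not all go 1 way, and those named next were chosen after their values were seen. Krt5, Itgb4 and Sfn were higher in every distal library than in every control one. Trp63 (90.8 to 127 against 183 to 236 CPM) and Itga6 (221 to 315 against 403 to 740 CPM) were lower in every distal library, and the rest overlapped. Of 8 fibroblast markers 7 were detected, with Lum at 0 throughout; their sum was 2.30 to 88.7 CPM in distal and 0.535 to 241 CPM in control libraries. The highest values belonged to distal replicate 3 and control replicate 1, and every other library had at most 15.7 CPM. Endothelial markers summed to at most 9.88 CPM in distal and 9.86 CPM in control libraries with 4 of 8 at 0 (Cdh5, Emcn, Cldn5 and Vwf). Melanocyte markers summed to at most 5.49 and 4.36 CPM in distal and control libraries, with Dct and Sox10 at 0, and immune markers to at most 1.61 and 1.18 CPM, with Cd3e and Cd207 at 0.

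HIF binds DNA at a short core, ACGTG or GCGTG, known as the hypoxia response element. The 250 bases before the start of transcription were taken from RefSeq (GRCm38.p6) for 8 of the 10 members, with 9 starts in all because Vegfa has a pair of them. Car12 and the others below were picked after their fold changes were seen, since these changed in different ways when the GC trend was removed. A link between the letters and the fold changes was not tested. Each is written 5′ to 3′ on the gene's own strand, and capitals mark ACGTG or GCGTG on either strand.

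Car12 (chr9:66713436-66713685, plus strand): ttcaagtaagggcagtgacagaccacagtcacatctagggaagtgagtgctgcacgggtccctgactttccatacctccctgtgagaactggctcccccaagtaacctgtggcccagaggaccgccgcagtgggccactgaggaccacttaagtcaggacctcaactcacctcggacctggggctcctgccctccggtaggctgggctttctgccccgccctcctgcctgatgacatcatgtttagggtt
Hif1a (chr12:73907617-73907866, plus strand): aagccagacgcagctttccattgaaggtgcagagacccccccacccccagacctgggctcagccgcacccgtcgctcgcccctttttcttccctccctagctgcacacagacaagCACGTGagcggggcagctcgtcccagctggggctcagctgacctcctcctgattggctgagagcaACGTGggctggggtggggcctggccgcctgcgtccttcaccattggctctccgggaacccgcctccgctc
Ero1l (chr14:45318573-45318822, minus strand): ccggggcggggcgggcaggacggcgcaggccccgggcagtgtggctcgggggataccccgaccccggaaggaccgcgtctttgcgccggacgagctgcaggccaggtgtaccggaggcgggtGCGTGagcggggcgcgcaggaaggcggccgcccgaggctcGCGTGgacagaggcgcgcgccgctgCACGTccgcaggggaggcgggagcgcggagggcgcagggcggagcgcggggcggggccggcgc
P4ha1 (chr10:59323046-59323295, plus strand): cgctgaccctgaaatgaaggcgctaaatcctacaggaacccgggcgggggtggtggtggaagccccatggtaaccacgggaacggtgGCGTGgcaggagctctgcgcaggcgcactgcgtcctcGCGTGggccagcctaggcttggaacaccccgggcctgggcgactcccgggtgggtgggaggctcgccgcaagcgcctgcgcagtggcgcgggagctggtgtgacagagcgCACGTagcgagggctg

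ACGTG, read on both strands, was found in 7 of the 8 matched members, all but Car12 (in Vegfa at 1 of its starts), and GCGTG in 5 of them (Egln1, Vegfa, P4ha1, Ero1l and Bnip3). Both Vegfa matches lie in a window inside the gene (chr17:46025164-46025413). The window before the start at the gene's outer end holds neither. The palindrome CACGTG, which also counts as ACGTG on each strand, lies in the Hif1a and Bnip3 windows. Of all 32851 RefSeq promoter windows of the same length, 16.6% held ACGTG and 28.2% held GCGTG. These shares are per window, whereas the members are counted per gene. The GC content of all windows is not given here, and the members were not tested against these shares. The member windows had a GC content of 50.8% to 86.0%, and a match describes letters only; many known HIF sites lie outside such windows.

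Per kilobase of annotated exon, Hif1a was the most abundant member in both regions, at 25.7 ± 11 CPM per kb in distal libraries (SD, n = 6) and 61.2 ± 10.9 CPM per kb in control libraries (SD, n = 8). In distal libraries it was followed by Ero1l (17.5), P4ha1 (12.7), Plod2 (10.2), Egln1 (7.92), Car12 (7.59), Bnip3 (7.19), Angptl4 (6.53), Vegfa (1.23) and Egln3 (0.528). In control libraries the order of CPM per kb was Ero1l (33.8), Car12 (22.5), Plod2 (20.2), P4ha1 (10.3), Bnip3 (8.86), Egln1 (6.57), Angptl4 (2.08), Vegfa (1.85) and Egln3 (0.815). Neighbours in these orders overlapped in range between libraries, except Angptl4 and Vegfa in distal and Egln1 and Angptl4 in control libraries. Car12 thus had rank 6 in distal and rank 3 in control libraries.

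**Figure D1:**
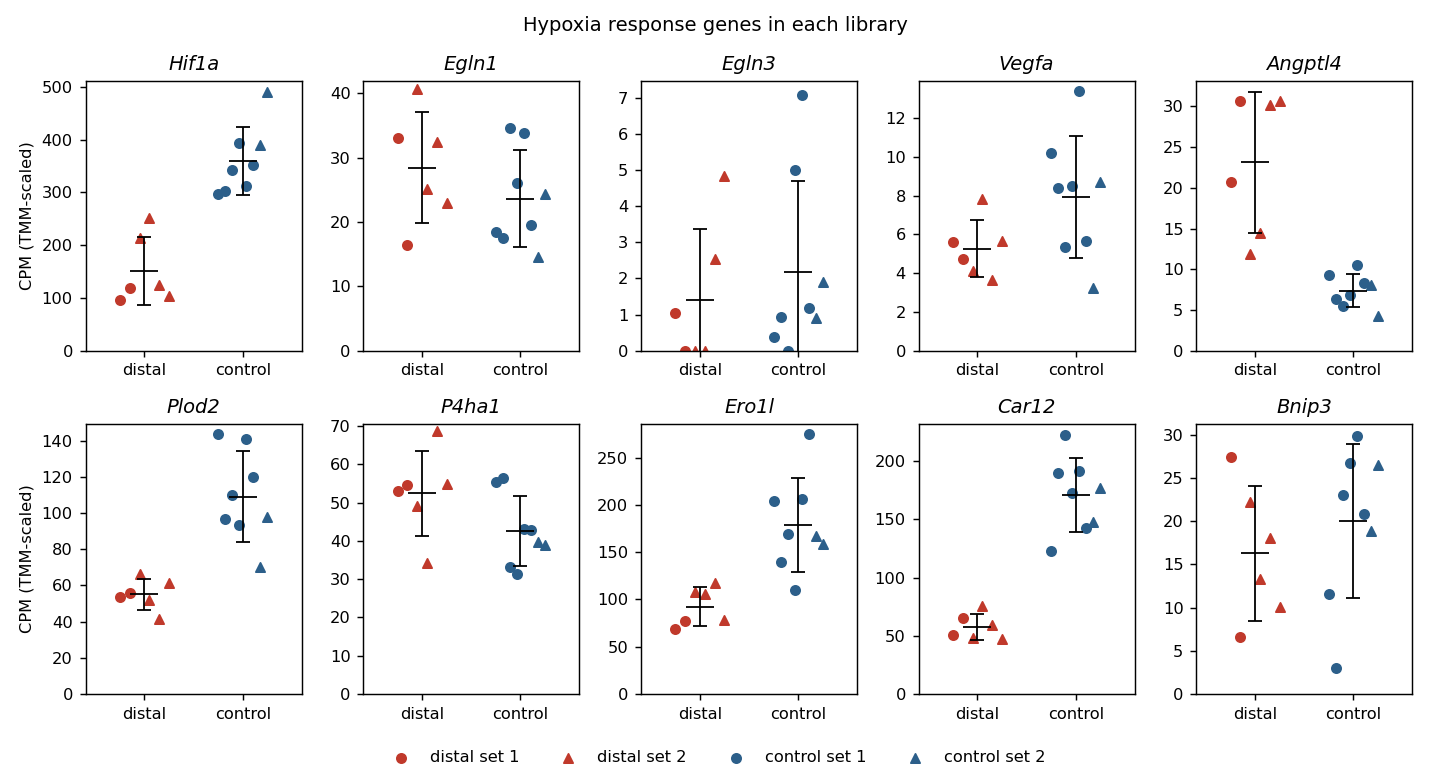
Level of each hypoxia response gene in each library, as CPM on TMM-scaled totals (y axis, starting at 0), for the 6 distal (red, left) and 8 control libraries (blue, right); circles are set 1 and triangles set 2 of a region, and black bars are the mean and SD. The regions do not overlap for Hif1a, Plod2, Car12 and Angptl4, of which Angptl4 is the one that is higher in distal libraries. Of all tested genes, 5.65% had every distal library below and 12.7% had every distal library above. With the GC and length trend removed, Car12 alone of these stayed without overlap.

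Of the 10 members 9 had enough counts to be tested, and Egln3 did not. In edgeR's quasi-likelihood test with Benjamini-Hochberg adjustment over 11757 genes, 5 of the 9 passed an adjusted p of 0.05: Car12, Hif1a, Plod2 and Ero1l were lower in distal cells and Angptl4 was higher. The share of all tested genes that passed was 48.3%, with 24.3% higher and 24.1% lower. The split was 3255 genes higher and 2202 lower with upper-quartile scaling, and 2853 and 2828 with TMM. A count of 5 of 9 is near the background and is not a result about hypoxia genes. Without control replicate 1 and distal replicate 3, the libraries with the most fibroblast marker counts, the same 5 passed, against 5850 of 11891 genes. In pools of cells, fewer cells of a type and less RNA per cell cannot be told apart. All fold changes below are to be read against a median log2 fold change of -0.16 over all tested genes, which was 0.00 with upper-quartile scaling. With the GC and length trend removed, 5 of 9 members again passed, against 18.4% of 11654 genes (8.75% higher and 9.65% lower), but they were not the same 5: Car12, Hif1a and Vegfa were lower, and Angptl4 and P4ha1 were higher. In that fit upper-quartile scaling gave 1775 genes higher and 756 lower, against 1020 and 1125 with TMM.

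Hif1a, the oxygen-regulated alpha subunit (chromosome 12, 73901375 to 73947530, GRCm38), had 95.3, 122 and 252 CPM as the lowest, median and highest distal value, against 297, 348 and 491 CPM in control libraries. Every distal library lay below every control library, which held for 5.65% of all tested genes. The log2 fold change was -1.25 ± 0.22 (SE; edgeR adjusted p = 0.00017). The distal libraries with the most Hif1a, replicates 3 and 4 at 213 and 252 CPM, were also the deepest of their region (4513518 and 4381280 counts) and had its lowest GC slopes (0.22 and 0.34). Plod2, with a GC content of 42.2%, did not have this order, at 66.4 and 52.1 CPM in replicates 3 and 4 and 61.4 CPM in replicate 6 (slope 0.90). Ero1l (44.7%) had it in part, at 108 and 106 CPM in replicates 3 and 4. It had 68.9, 76.8 and 77.9 CPM in replicates 1, 2 and 6, but its highest value, 117 CPM, in replicate 5 (slope 0.60). A part of depth or GC slope in these levels was not tested. The transcripts of Hif1a have a GC content of 41.3%, within the lowest quintile of tested genes, where the median log2 fold change was -0.89 and 53.3% of genes were lower. With the trend removed the regions overlapped, at 165, 180 and 292 CPM in distal and 237, 276 and 329 CPM in control libraries. Hif1a still fell in that fit, by 0.46 ± 0.14 on the log2 scale (SE; edgeR adjusted p = 0.03). It missed the threshold there without any 1 of control replicates 3, 6, 7 and 8 or distal replicates 1, 2, 3, 5 and 6, at -0.40 to -0.31, and with upper-quartile scaling (-0.30; edgeR adjusted p = 0.11). As counted but with log10 total count as a covariate, Hif1a stood at -0.55 (edgeR adjusted p = 0.21). Hif1a is overlapped on the opposite strand by Gm15283, which had 239 counts over all libraries, and on its own strand by Gm49321, which was not analysed here.

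Egln1 encodes the main prolyl hydroxylase that marks the alpha subunit for degradation (chromosome 8, 124908587 to 124949324). It had 16.5, 28.9 and 40.6 CPM as lowest, median and highest distal value and 14.5, 22.0 and 34.6 CPM in control libraries, and the regions overlapped. Its log2 fold change was 0.27 with a 95% interval of -0.24 to 0.79 (edgeR adjusted p = 0.37), and -0.41 with an interval of -0.98 to 0.16 with the trend removed (edgeR adjusted p = 0.32). Both intervals cover a rise as well as a fall, and the sign turned with the trend. Egln3, a hydroxylase whose gene is itself a HIF target (chromosome 12, 54178981 to 54203860), had 0 to 12 counts per distal library and 0 to 44 counts per control library. Its level was 0, 0.527 and 4.84 CPM in distal and 0, 1.06 and 7.08 CPM in control libraries, too low for a comparison at this depth.

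Vegfa encodes the growth factor that draws in blood vessels and is the textbook HIF target (chromosome 17, 46016993 to 46032369). It was low in both regions, with 13 to 34 counts per distal and 18 to 83 counts per control library. Its level was 3.67, 5.19 and 7.80 CPM in distal and 3.21, 8.43 and 13.4 CPM in control libraries, and the regions overlapped. The log2 fold change was -0.59, with a 95% interval of -1.34 to 0.16 (edgeR adjusted p = 0.18). Its transcripts have a GC content of 54.4%, within a quintile of genes with a median log2 fold change of 0.50. That is a median over 13 transcripts, and the longest has 50.9%, in the range of the quintile with a median of -0.17. Vegfa fell once the trend was removed, at -1.29 ± 0.37 (SE; edgeR adjusted p = 0.019). It missed the threshold without any 1 of distal replicates 2, 5 and 6 (-1.17, -1.12 and -1.21; edgeR adjusted p = 0.055, 0.06 and 0.051) and with the GC content of the longest transcript (-0.82; edgeR adjusted p = 0.12).

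Angptl4, a secreted inhibitor of lipoprotein lipase that responds to HIF and to PPAR factors (chromosome 17, 33773750 to 33781830), was the one member that rose as counted. Its distal values were 11.9, 25.5 and 30.7 CPM, against 4.25, 7.42 and 10.5 CPM in control libraries. The lowest distal value exceeded the highest control value, as it did for 12.7% of all tested genes. The log2 fold change was 1.64 ± 0.28 (SE; edgeR adjusted p = 0.00015). Its GC content was 55.3%, in the quintile with a median log2 fold change of 0.50, where 97.6% of genes had a lower value. That is a median over 4 transcripts, and the longest has 50.7%, in the range of the quintile with a median of -0.17. The distal libraries with the least Angptl4 were replicates 3 and 4 (11.9 and 14.5 CPM), those with the lowest GC slopes, and a part of the slope in this was not tested. With the trend removed the levels were 10.3, 16.4 and 21.6 CPM in distal and 5.57, 8.83 and 13.2 CPM in control libraries, which overlapped, whereas 3.84% of genes then had every distal library above. The log2 fold change was 0.80 ± 0.25 (SE; edgeR adjusted p = 0.033). It no longer passed without any 1 of control replicate 2 or distal replicates 2, 5 and 6, at 0.78 to 0.84 (edgeR adjusted p = 0.05 to 0.054), nor as counted with log10 total count as a covariate (0.86; edgeR adjusted p = 0.29). With the trend removed it passed at 1.38 when the GC content of the longest transcript was used (edgeR adjusted p = 0.0011) and at 0.98 with upper-quartile scaling (edgeR adjusted p = 0.012).

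Plod2 and P4ha1 encode enzymes that hydroxylate collagen in the endoplasmic reticulum, on lysines and prolines. Plod2 (chromosome 9, 92542223 to 92608428) had 41.5, 54.5 and 66.4 CPM in distal and 70.1, 104 and 144 CPM in control libraries. All distal values lay below all control values, which held for 5.65% of all tested genes. The log2 fold change of Plod2 was -0.99 ± 0.17 (SE; edgeR adjusted p = 0.00019). Without control set 1 it stood at -0.57 and did not pass (edgeR adjusted p = 0.11), which left 4 members past the threshold against 18% of genes. The value over all libraries is close to the median of -0.89 in its quintile by GC content (42.2%). Plod2 with the trend removed stood at -0.23, with a 95% interval of -0.62 to 0.16, and no longer passed (edgeR adjusted p = 0.42). Control replicate 1, which had the most fibroblast marker counts, also had the most Plod2 (144 CPM). Control replicate 5 had 141 CPM of Plod2 and 7.56 CPM of fibroblast markers. Without control replicate 1 and distal replicate 3 the log2 fold change of Plod2 was -0.98 (edgeR adjusted p = 0.00039). A part of fibroblasts in the level of Plod2 was not tested. Gm38391, on the opposite strand at the start of Plod2, had 211 counts over all libraries.

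P4ha1 (chromosome 10, 59323296 to 59373304) did not follow Plod2. It had 34.2, 53.8 and 68.6 CPM in distal and 31.4, 41.2 and 56.3 CPM in control libraries, which overlapped, and its log2 fold change of 0.30 had a 95% interval of -0.08 to 0.68 (edgeR adjusted p = 0.18). Distal replicate 4 held the lowest of the distal values, and without it P4ha1 passed at 0.52 (edgeR adjusted p = 0.027). In its quintile by GC content (46.9%), where the median log2 fold change was -0.57, 93.7% of genes had a lower value. P4ha1 rose once the trend was removed, with 40.2, 69.5 and 86.2 CPM in distal and 27.4, 36.8 and 45.2 CPM in control libraries. Its log2 fold change was then 0.85 ± 0.18 (SE; edgeR adjusted p = 0.0029), and it kept that call without each single library (0.81 to 1.07). It did not pass with counts also summed per set (1.04; edgeR adjusted p = 0.051) or without control set 1 (0.92; edgeR adjusted p = 0.12).

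Ero1l encodes an oxidase that forms disulfide bonds in the endoplasmic reticulum (chromosome 14, 45283087 to 45318771). It had 68.9, 92.1 and 117 CPM in distal and 110, 168 and 275 CPM in control libraries, and 5 of 6 distal libraries lay below the lowest control value. The log2 fold change was -0.95 ± 0.19 (SE; edgeR adjusted p = 0.00071), and -0.37 with a 95% interval of -0.73 to -0.01 with the trend removed, which did not pass (edgeR adjusted p = 0.14). Its GC content was 44.7%, in the quintile with a median of -0.57. That is a median over 6 transcripts, and the longest has 41.6%, in the range of the quintile with a median of -0.89. With the trend removed by the GC content of the longest transcript, Ero1l stood at -0.19 (edgeR adjusted p = 0.54). With log10 total count as a covariate it did not pass (-0.78; edgeR adjusted p = 0.12).

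Car12, a membrane carbonic anhydrase that hydrates carbon dioxide outside the cell (chromosome 9, 66713686 to 66766845), was the member with the smallest adjusted p. It had 47.6, 54.8 and 75.7 CPM in distal libraries, against 123, 175 and 223 CPM in control libraries. All 6 distal libraries lay below all 8 control libraries by a clear gap, and 5.65% of all tested genes had every distal library below. Its log2 fold change was -1.57 ± 0.17 (SE; edgeR adjusted p = 2.5e-06). Its GC content of 49.1% is near the middle of the tested genes, in a quintile with a median of -0.17, where 2.4% of genes had a lower fold change. Car12 with the trend removed had 51.5, 60.4 and 85.8 CPM in distal and 106, 166 and 207 CPM in control libraries, still without overlap, which held in that direction for 2.87% of genes. Its log2 fold change there was -1.32 ± 0.16 (SE; edgeR adjusted p = 5.2e-05). Car12 passed in all 31 alternatives to the fit as counted and all 21 to the fit with the trend removed.

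Bnip3 encodes a receptor that marks mitochondria for removal when oxygen is low (chromosome 7, 138890836 to 138909519). It varied most among the tested members, at 6.58, 15.7 and 27.4 CPM in distal and 2.98, 21.9 and 29.9 CPM in control libraries, with coefficients of variation of 47.9% and 44.5%. Its log2 fold change was -0.30 with a 95% interval of -1.13 to 0.54 (edgeR adjusted p = 0.55), and -0.43 with an interval of -1.30 to 0.44 with the trend removed (edgeR adjusted p = 0.52). The related receptor gene Bnip3l, chosen after its values were seen, stood at -0.33 (edgeR adjusted p = 0.32).

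**Figure D2:**
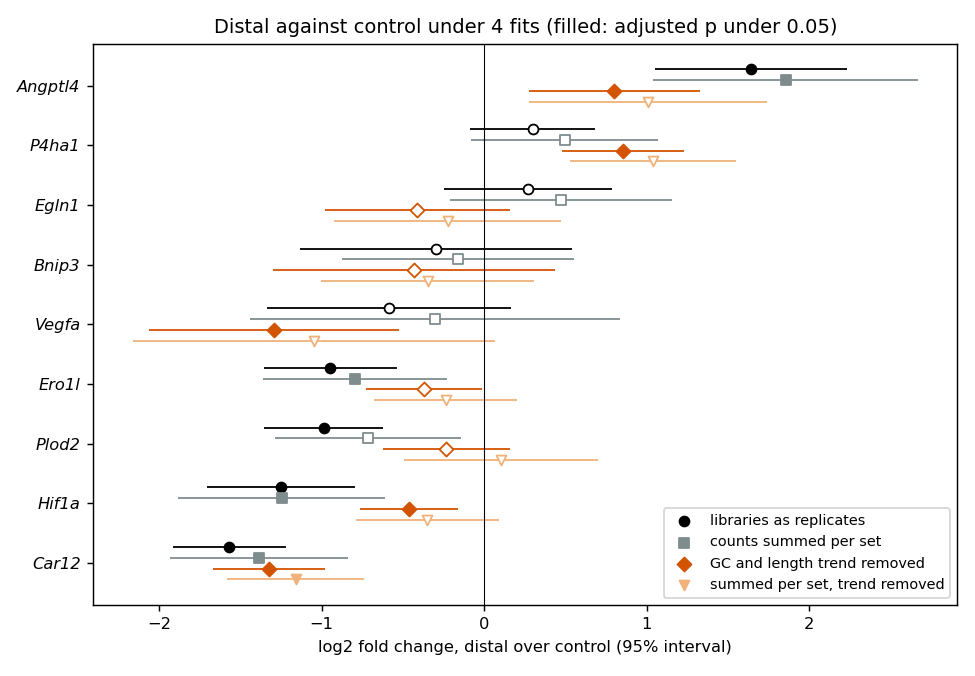
Log2 fold change of distal over control cells (x axis) with its 95% interval for the 9 tested members, under 4 edgeR fits; filled symbols passed an adjusted p of 0.05. Car12 lies between -1.57 and -1.16 and passes in all 4. Hif1a, Angptl4, Plod2 and Ero1l move toward 0 when the trend is removed, and P4ha1 and Vegfa move away from it.

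**Figure D3:**
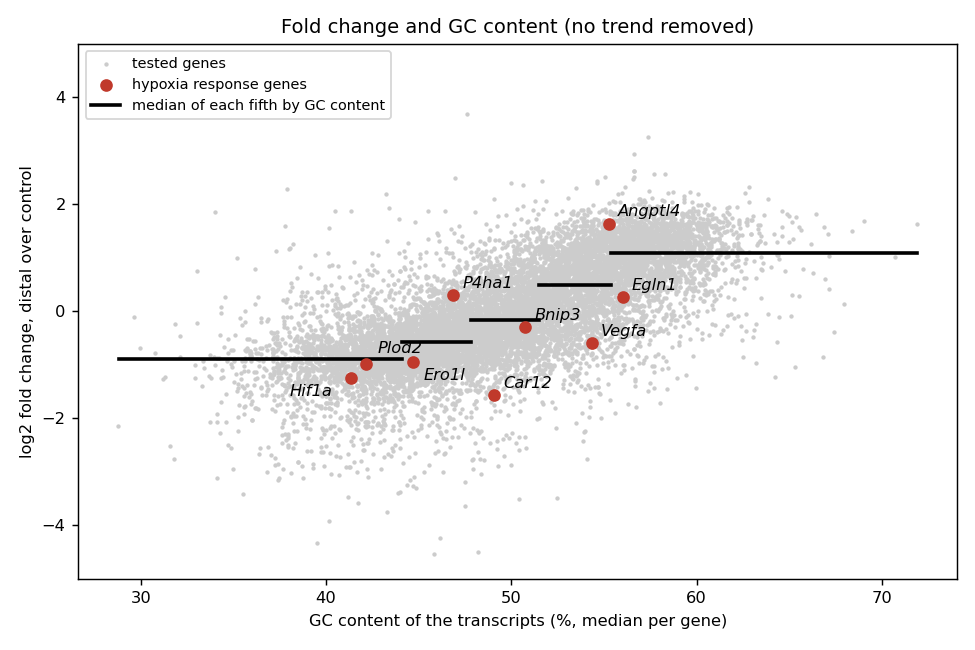
Log2 fold change of distal over control cells (y axis, no trend removed) against the GC content of each gene's transcripts (x axis) for tested genes in grey, with the hypoxia response genes in red and the median of each quintile by GC content as black lines. GC content is a median over transcripts. The longest transcript has 50.9% in Vegfa, 50.7% in Angptl4 and 41.6% in Ero1l and in Bnip3, which would place these genes in other quintiles. The medians run from -0.89 in the lowest to 1.09 in the highest quintile; Hif1a, Plod2, Ero1l and Bnip3 lie closer to that of their quintile than the other members, of which Car12, Vegfa and Egln1 lie below and Angptl4 and P4ha1 above.

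Each region is made of 2 sets of libraries, with 2 and 4 libraries in the distal and 6 and 2 in the control region, and no set holds both regions. Car12 had nearly equal means in the distal sets (57.6 CPM in set 2 and 57.7 CPM in set 1), against 162 CPM in set 2 and 174 CPM in set 1 of the control region. Hif1a averaged 173 CPM in distal set 2 and 107 CPM in distal set 1, a log2 difference of 0.70 with a 95% interval of 0.06 to 1.34 (edgeR adjusted p = 0.62). Angptl4 averaged 21.8 CPM in distal set 2 and 25.7 CPM in distal set 1. No gene passed in edgeR between the distal sets (0% of 11757; 921 at an unadjusted p under 0.05) or between the control sets (0% of 11757; 969 at an unadjusted p under 0.05). With counts summed per set, which leaves 2 against 2, 30.5% of genes passed (18.8% higher and 11.7% lower), and among the members Car12 (-1.39; edgeR adjusted p = 0.0027), Hif1a (-1.25; 0.0081), Angptl4 (1.85; 0.0039) and Ero1l (-0.80; 0.035) did, whereas Plod2 did not (-0.71; edgeR adjusted p = 0.056). After trend removal on these sums 2.22% of genes passed (1.28% higher and 0.944% lower), and Car12 was the one member among them (-1.16; edgeR adjusted p = 0.033). With the trend removed and a set left out, Car12 alone of the members passed without control set 1, against 1.86% of all genes, and Car12 and P4ha1 without distal set 1, against 10.8% of genes. Without distal set 2 Car12, P4ha1 and Hif1a (-0.78; edgeR adjusted p = 0.016) passed, against 7.29% of genes, and without control set 2 Car12, P4ha1, Vegfa and Angptl4 did, against 20.3% of genes.

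The rest of the pathway was followed in 8 lists with 115 genes beside the members, of which 95 were tested. As counted, 32 rose and 20 fell, a share of 54.7% against 48.3% of all genes, with a median log2 fold change of 0.10. After trend removal, 8 were higher and 13 lower, where 8.75% of all genes were higher and 9.65% lower, with a median of -0.05 against -0.02 over all genes. With counts summed per set as well, 1 was higher and 2 lower, against 1.28% and 0.944% of all genes. The counts of each list are to be read against these shares, and as counted against 24.3% higher and 24.1% lower. Among 10 tested genes of oxygen sensing 2 rose and 4 fell (median -0.56). Cul2, the scaffold of the ubiquitin ligase that carries the von Hippel-Lindau protein, averaged 55.0 ± 10.8 CPM in distal and 119 ± 22.1 CPM in control libraries (SD) and fell by 1.11 on the log2 scale (edgeR adjusted p = 4.3e-05). Its partner Elob rose by 0.93 and the hydroxylase gene Egln2 by 1.28 (edgeR adjusted p = 0.00012 and 0.0012). None of these 3 passed with the trend removed, at -0.29, -0.13 and 0.17. Cited2, which competes with HIF for its coactivators, had 42.5, 55.8 and 67.4 CPM in distal and 70.5, 76.6 and 122 CPM in control libraries. It fell by 0.65, and by 1.26 with the trend removed, where it was the one of these 10 genes to pass (edgeR adjusted p = 0.0056 and 0.00051). The member Hif1a, of the same list, also passed in that fit.

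Of 8 tested genes for secreted factors, Pdgfb, a platelet-derived growth factor, rose (1.39; edgeR adjusted p = 2.5e-05), and 7 did not pass, among them Vegfb (0.61) and Pgf (1.12). Pdgfb did not pass with the trend removed (0.28; edgeR adjusted p = 0.3). There the growth factor gene Tgfa, named after its values were seen, was the one of these 8 that fell (-0.67; edgeR adjusted p = 0.036). Of the members in this list, Vegfa also fell in that fit and Angptl4 rose. Of 11 other collagen-modifying enzymes and chaperones 8 rose and none fell, with a median of 0.80, against 24.3% of all genes higher and 24.1% lower. In the fit of per-set sums 3 of them were higher, against 18.8% of all genes. Plod3 rose by 1.45, P4ha2 by 0.82, Crtap by 0.80 and Serpinh1, a collagen chaperone, by 0.49. None of the 11 passed once the trend was removed and the median was 0.07, so that P4ha1 was the collagen enzyme that rose in that fit. Of 9 other genes of disulfide formation 3 rose and 2 fell. The thiol oxidase gene Qsox1 rose by 1.43 and Txndc5 by 0.92, and Pdia3 fell by 1.13 on the log2 scale (1346 ± 468 CPM in distal and 2952 ± 426 CPM in control libraries, SD). These 3 still passed with the trend removed, at 0.65, 0.67 and -0.73 (edgeR adjusted p = 0.011, 0.0048 and 0.0041). Prdx4, which stood at -0.87, did not (-0.53; edgeR adjusted p = 0.083).

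Of 8 tested mitophagy receptors and adaptors Fkbp8 (1.66) and Pink1 (1.49) rose as counted, and Map1lc3b (0.44) and Fundc1 (-0.51) did not pass. With the trend removed 1 was higher and 1 lower: Fkbp8 still passed at 0.56 (edgeR adjusted p = 0.029), and the adaptor gene Sqstm1, named after its values were seen, fell (-0.65; edgeR adjusted p = 0.00065) after standing at -0.13 as counted. Of 10 other carbonic anhydrases and acid transporters 4 rose and 3 fell as counted and none passed with the trend removed. They include the bicarbonate carriers Slc4a2 (1.41) and Slc4a7 (-1.18), the lactate exporter Slc16a3 (0.84) and its chaperone Bsg (0.62). Car9, the carbonic anhydrase most often used as a hypoxia marker and named here after its values were seen, stood at 0.11 ± 0.73 as counted (SE; edgeR adjusted p = 0.91). Its mean was 2.49 CPM in distal and 2.27 CPM in control libraries, with a lowest value of 0 in both, so little can be read from it. Car12 was thus the one tested gene of this list to pass with the trend removed.

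Of 19 tested metabolic targets 9 rose and 4 fell; after trend removal 3 were higher and 3 lower. Gapdh (1.43), Eno1 (1.13), Aldoa (1.29) and Pkm (1.16), enzymes of glycolysis, rose as counted; Gapdh (0.63) and Pkm (0.40) still passed with the trend removed and Eno1 (0.30) and Aldoa (0.26) did not. Of 21 other HIF targets 4 rose and 7 fell; after trend removal 2 were higher and 6 lower (median -0.03), against 8.75% and 9.65% of all genes. The cytokine gene Mif rose by 1.5, and the histone demethylase gene Kdm3a (-1.32), the transferrin receptor gene Tfrc (-1.23) and Nampt, an enzyme of NAD synthesis (-1.57), fell. After trend removal Kdm3a (-0.85), Tfrc (-0.46) and Nampt (-0.93) still passed and Mif (0.33) did not. The other genes that then fell, Ddit4 (-1.36), Ndrg1 (-0.87) and Ak4 (-0.85), and in the metabolic list the glucose transporter gene Slc2a1 (-1.03), Hk2 (-0.83) and Pfkp (-0.57), were named after their values were seen. So were the other genes that rose in that fit, Tmem45a (1.43) and Higd1a (0.80), and in the metabolic list Tpi1 (0.53), an enzyme of glycolysis. Of these 9, Ak4, Pfkp, Tmem45a and Tpi1 also passed as counted.

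**Figure D4:**
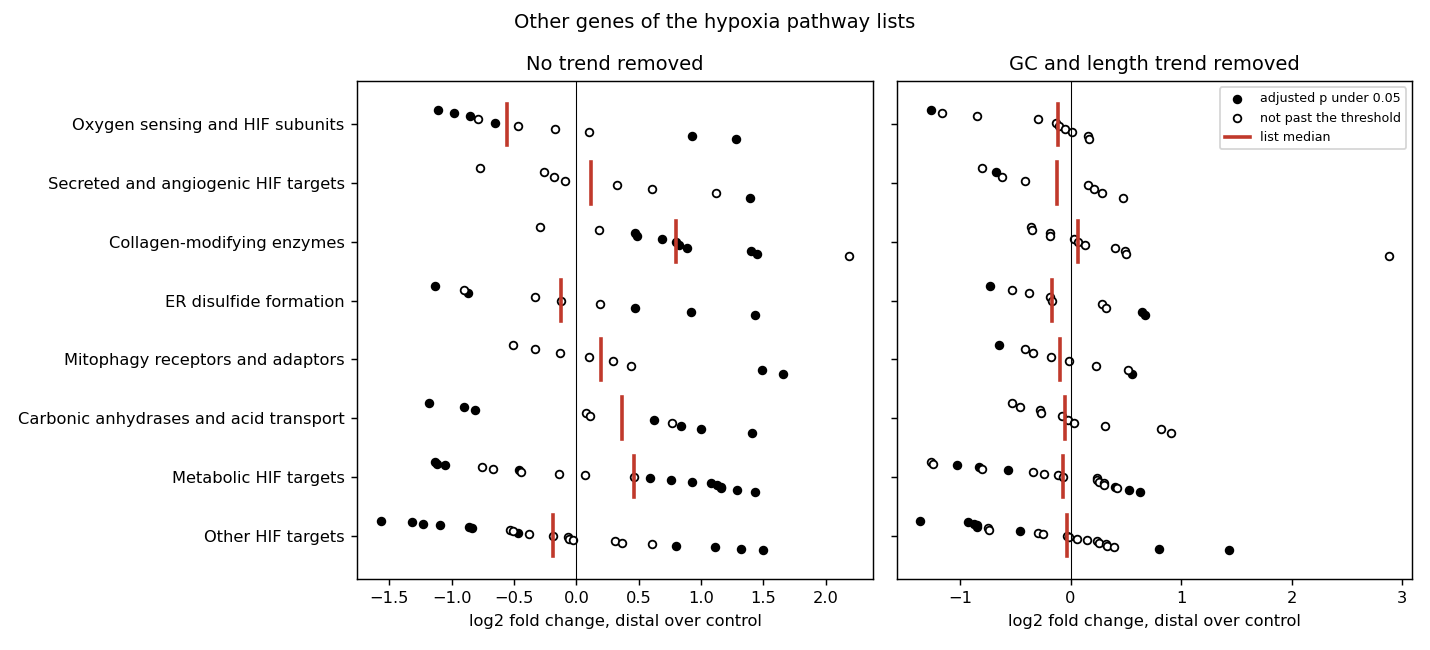
Log2 fold change of distal over control cells for the tested genes of 8 pathway lists other than the members, as counted (left) and with the GC and length trend removed (right); filled points passed an edgeR adjusted p of 0.05 and red bars are list medians. Collagen-modifying enzymes have the highest median as counted (0.80) and one near 0 (0.07) once the trend is removed.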

How the data were processed

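RNA was measured in 14 libraries made with Smart-seq2 and Nextera XT, per the labels' protocols. The authors deposited raw, unnormalised counts per gene symbol. Per the submitters' processing notes, the tools were HISAT2 and featureCounts and the build mm10 (GRCm38). Strand use and the handling of reads that match several genes are not stated, so values of overlapping genes are uncertain.

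The main test was edgeR 4.0.16 in R 4.3.3, with filterByExpr, TMM scaling and a robust two-sided quasi-likelihood F test (Benjamini-Hochberg adjusted p under 0.05). The SE is the size of the log2 fold change over the root of F. CPM use TMM-scaled totals. To remove the trend, log2 CPM (prior count 2), centred per gene, was modelled in each library by natural splines of GC content and of log2 length, with 4 degrees of freedom apiece, and the fitted values became offsets. GC content and length are medians over GENCODE transcripts and were known for 99.1% of tested genes. Sets were compared in a model with 4 sets. Alternatives used DESeq2 1.42.0, limma 3.58.1, other scalings and filters, thinned counts, a depth covariate, a replicate block, sums per set, and left-out libraries or sets. Of these, trend-removed fits with libraries or sets left out, summed, rescaled or using the longest transcript, and the fit without the fibroblast-rich libraries, were chosen after seeing the data.

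The members and lists were chosen with earlier results of these data known. All members are named, with up to 4 genes of smallest p per list, except 1 that is not reported here; other names are marked. The scripts were tested on simulated data. All 23 pairs of libraries within a set differed by more than sampling noise (chi-square over its degrees of freedom 6.83 to 40.0).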

Additional observations from a re-analysis of the deposited data

How the results depend on the processing

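Car12 kept its direction and its call in every alternative run, and Hif1a, Angptl4, Plod2 and Ero1l kept their direction in every alternative to the fit as counted. The number of genes past the threshold, 5681 as counted, was 3582 with counts summed per set, 2145 with the GC and length trend removed, 1916 with the replicate block as well, 952 with log10 total count as a covariate and 2267 without control set 1. The number of members, 5, was 3 with the block and the trend removed (Car12, P4ha1 and Vegfa), against 1916 of 11654 genes. It was 2 with the depth covariate (Car12 and Plod2), against 952 of 11757 genes. The 52 list genes past the threshold became 34, 21, 20, 14 and 25 in those settings, in the order given for all genes. From the fit with the trend removed, the counts of genes, members and list genes were 232, 1 and 1 without control set 1, and 259, 1 and 3 summed per set. They were 1338, 2 and 14 without distal set 1, and 1019, 3 and 11 without distal set 2. Under upper-quartile scaling that fit had 1775 genes higher and 756 lower, against 1020 and 1125 with TMM, and a median of 0.15. Leaving out each library gave 4911 to 5842 genes, 5 to 6 members and 46 to 53 list genes as counted. With the trend removed it gave 1807 to 2468, 2 to 5 and 18 to 31. The members fell to 2 there without distal replicate 2, 5 or 6, against 1915 of 12030, 1898 of 12035 and 1807 of 12047 genes.

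Directions turned in values that had not passed. Egln1 was at -0.41 with the trend removed and -0.54 with the block as well. With the depth covariate P4ha1 was at -0.10 and Bnip3 at 0.26. From the fit with the trend removed, Plod2 was at 0.27 without control set 1 and 0.10 summed per set, and Bnip3 at 0.36 with the longest transcript. The causes were not tested. The replicate block alone left 5442 of 11757 genes and 5 members. Deviations of same-numbered libraries correlated at -0.02 to 0.11 over 6 numbers, so the numbers are not treated as pairs. At this depth Egln3 was not tested.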
